A study of Mus musculus with 12 samples.

Results

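The capillary endothelial cells of the mouse hind limb joint made up 1323 of the 20213 cells that had more than 500 and fewer than 5000 detected genes, out of 21042 deposited cells. They were chosen by detected genes alone, a gene counting as detected from 1 unique molecular identifier (UMI, the tag that marks 1 captured RNA molecule). A member had at least 3 of the pan-endothelial genes Pecam1, Cdh5, Kdr, Emcn and Egfl7, at most 1 of the lymphatic genes Prox1, Mmrn1, Ccl21a and Flt4, and more of the capillary genes Gpihbp1, Cd36, Timp4, Car4 and Aqp7 than of the venular genes Selp, Sele, Vwf, Vcam1 and Lrg1. The first 2 gates left 1748 vascular endothelial cells, of which 251 had more venular than capillary genes and 174 had as many of one as of the other.

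The cells came from wild-type (WT) C57BL/6 male mice of 8 to 10 weeks. Serum transfer-induced arthritis (STIA), a joint inflammation that sets in after an injection of serum from K/BxN mice and later subsides, was induced with 100 µl of serum, and the 12 libraries carry the labels rest (no serum, taken at day 0), peak (taken 7 to 9 days after serum), resolving (15 days after) and resolved (22 days after), with 3 libraries each. Each library pooled the joints of 3 animals. After digestion with collagenase, live CD45-negative cells (CD45 marks immune cells) were taken by flow cytometry for capture with the 10x Genomics 3′ system.

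Capillaries are the thinnest blood vessels, and their endothelial cells exchange water, gases and nutrients with the tissue. In muscle and fat, capillary cells hold lipoprotein lipase at their inner surface with GPIHBP1 and take up the fatty acids it releases through CD36, and flask-shaped pits of the membrane, the caveolae, carry material across them. Venules, by contrast, show selectins and other adhesion molecules to leukocytes, and sprouting vessels rebuild their basement membrane while their cells divide.

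Genes outside the rule are given as a description of the members and no test of the label. All 22 listed endothelial identity genes passed the filter on low counts in the members. All 5 erythroid and 7 of 9 fibroblast markers passed it too, so passing it does not bear on the label. Plvap, 1 of the 22, had 564 CPM in members and 2049 in venular cells, so this list does not part capillary from venular cells. Fabp4, a fatty acid binding protein of capillary cells, had 12064 ± 2334 against 156 ± 48.5 CPM (mean ± SD over 12 libraries), the members against all other cells of the same libraries. These other cells were mostly fibroblasts (13933 cells), so this value does not part capillary from venular cells. Fabp4 was not among the 15 genes with the highest ratio of capillary over venular cells given below. Levels are given as CPM, the UMIs of a gene scaled so that all genes of the summed cells have the same total in every library. Among the rule's own genes, given as a description because they chose the cells, Cd36 was detected in 94.8% of members, Gpihbp1 in 91.1%, Timp4 in 74.8%, Aqp7 in 64.0% and Car4 in 43.3%. In fibroblasts, marked by at least 4 of 5 fibroblast genes and no pan-endothelial gene, these shares were 2.1%, 1.3%, 1.3%, 0.3% and 0.6%, at a median of 5907 UMIs per fibroblast and 3037 per member. Of the members, 381 had all 5 capillary genes and 75 had 1, and 1068 had no venular gene. Near the threshold lay 153 members that had 1 more capillary than venular gene and 157 that had 2 more, beside the 174 tied cells just outside.

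Members also held genes of other cells. Dcn, a matrix proteoglycan of fibroblasts, was detected in 59.6% of members and in 28.5% after each cell was thinned to 1000 UMIs, against 100% and 97.5% of the fibroblasts, which it helped to choose. At least 3 of 7 fibroblast and perivascular markers (Pdgfra, Dcn, Lum, Serpinf1, Col1a1, Acta2, Rgs5) were found in 270 members (20.4%). The 12 immune markers summed to 2459 CPM in the members of rest 2, 525 in resolving 1 and 344 in peak 2, and to between 9.89 and 47.1 CPM in the other 9 libraries. S100a8 and S100a9, calcium-binding proteins of neutrophils, had 1258 and 1131 CPM in rest 2, Lyz2, lysozyme of myeloid cells, had 375 in resolving 1, Ptprc, the gene of CD45, had 2.96 in rest 2, 9.16 in peak 2 and 0 in the other 10 libraries, and C1qa, Adgre1 and Cd3e were at 0 UMIs in all 12 libraries. The 5 erythroid markers summed to 15411 CPM in peak 1, 18695 in resolved 1 and 26187 in resolving 3, and to between 479 and 3155 in the other 9. All other cells ranged from 25.3 to 2056 CPM for the immune and from 622 to 3716 CPM for the erythroid markers. The part of these markers in the results was not tested.

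The members per library numbered 109, 69 and 49 in the libraries labelled rest, 103, 54 and 254 at peak, 85, 59 and 163 at resolving and 44, 58 and 276 at resolved, and their summed UMIs ranged from 187204 to 1042895. No cell barcode was shared between libraries. The barcodes of each library end in a number from 1 to 12, and what it stands for is not given in the sources used here. Suffixes 1 to 3 belong to rest 1, peak 1 and resolving 1, suffixes 4 to 6 to resolved 1, rest 2 and peak 2, suffixes 7 to 9 to resolving 2, resolved 2 and rest 3, and suffixes 10 to 12 to peak 3, resolving 3 and resolved 3. In the members, no library was most alike (Pearson r over 5375 genes, which are not independent replicates) to a library of its own stage label, and 6 of 12 were most alike to one of their own run of 3 suffixes. Rest 1, peak 1 and resolving 1 were each most alike to peak 3 or resolved 3, outside their run. Those libraries had the largest sums, 1042895 and 967389 UMIs, and the part of depth in this measure was not tested. Each comparison was made by stage label and by suffix run. Below, "rest", "peak" and the other stages mean the libraries so labelled, and values for a run follow the order of suffixes just given.

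The share of capillary cells among vascular endothelial cells was 64.1% ± 13.9 at rest, 77.6% ± 16.9 at peak, 73.3% ± 14.8 at resolving and 65.8% ± 22.8 at resolved (mean ± SD, n = 3 each). The differences from rest were 13.5, 9.16 and 1.64 percentage points, and exact two-sided permutation tests gave p = 0.4, 0.5 and 1, where 3 libraries against 3 cannot go below 0.1. By suffix the shares were 77.9%, 83.1% and 73.3% in libraries 1 to 3, then 56.4%, 50% and 58.7%, then 58.4%, 49.2% and 64.5%, and 91.0%, 88.1% and 91.7% in libraries 10 to 12. Every library of suffixes 4 to 9 lay below every library of suffixes 1 to 3, and every library of 10 to 12 lay above. The run 4-6 was 23.03 percentage points lower than 1-3 and the run 10-12 was 12.2 higher, each at the smallest exact permutation p that 3 against 3 allows (p = 0.1). Over all 12 libraries, 92.3% of the variance of the share lay between the 4 runs (exact permutation test over 15400 arrangements, p = 0.00052) and 12.99% between the 4 stages (p = 0.729), a test added after the data were seen. The cut of the suffixes into runs of 3 was also chosen with earlier results of these data known. The p for the runs is therefore a description of these libraries and no independent support. As a share of all cells, members ranged from 2.11% in resolved 2 to 18.1% in resolved 3, and the same exact permutation test gave p = 0.000584 for the runs and p = 0.916 for the stages. A share of sorted cells also carries the yield of digestion and sorting, whose part was not tested.

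**Figure D1:**
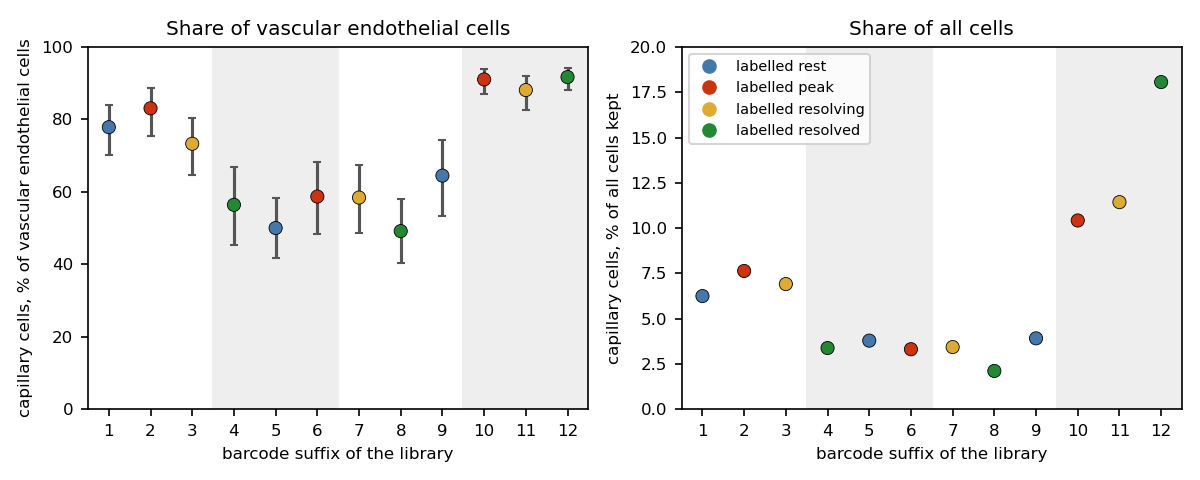
Capillary cells as a percentage of vascular endothelial cells (left, bars are 95% Wilson intervals, which cover counting error only) and of all cells kept (right) against the barcode suffix of each of the 12 libraries, coloured by stage label, with suffixes 4 to 6 and 10 to 12 shaded. On the left, libraries 10 to 12 lie between 88.1% and 91.7% and libraries 4 to 9 between 49.2% and 64.5%, whatever their label.

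By stage label, no gene of the capillary cells passed the test. UMIs were summed over the members of each library and tested with edgeR's quasi-likelihood test, and a called gene had an adjusted p below 0.05 together with a log2 fold change above 0.5 in size. Of 5375 genes, 0 (0%) were called at peak, resolving or resolved against rest, while 128, 147 and 99 had an unadjusted p under 0.05, and DESeq2 called 0 in each. The 3 libraries of the later stage all lay on one side of the 3 at rest for 6.2%, 7.29% and 5.58% of genes. Gpihbp1, the anchor of lipoprotein lipase, stood at 1146 ± 345 CPM at rest and 1336 ± 420.4 at peak, and Lpl, the lipase itself, at 944 ± 542 and 1079.7 ± 236 CPM. The endothelial adhesion receptor Icam1 had 402 ± 118 CPM at rest, 403 ± 111 at peak and 281 ± 203 at resolved. The median log2 fold change of the 20 adhesion and inflammation genes tested was -0.01 at peak and 0.01 at resolving, against -0.02 and -0.01 over all genes, and -0.08 against -0.01 at resolved, where 15 of the 20 were below 0. The median of the 15 cell cycle genes was -0.65 at peak, -1.10 at resolving and 0.26 at resolved, with 4, 1 and 10 of them above 0. With the suffix run as a block, 1 gene was called at resolved and 0 at the other stages.

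Run 4-6 was set against 1-3, 7-9 against 4-6 and 10-12 against 1-3. By suffix run, 451 of 5375 genes (8.39%) were called between the capillary cells of libraries 4 to 6 and 1 to 3, 255 higher (4.74%) and 196 lower (3.65%) in 4 to 6. These shares of all genes are the background of each list count for this contrast below. Between runs 7-9 and 4-6, 7 genes (0.13%) were called, 5 of them higher (0.093%) and 2 lower (0.0372%) in 7-9. Between 10-12 and 1-3, 0 genes were called with edgeR, 348 had an unadjusted p under 0.05, and DESeq2 called 13. An F test over the 4 runs called 674 genes (12.5%). The count changed with the cells and libraries that entered. Leaving out members with at least 3 of 18 cell cycle genes (a choice made after the data were seen) left 36 calls of 3956 genes tested, and drawing 44 members from every library left 188 of 3492. Without resolved 1, rest 1 or rest 2 the calls numbered 291, 245 and 255, and without peak 2 they numbered 511. Without 192 members of sub-clusters led by markers of other cell types they numbered 590 of 4437 genes. Each run holds 3 different stage labels, so a run is not a stage, but each run lacks a label. Run 1-3 has no resolved library, 4-6 no resolving, 7-9 no peak and 10-12 no rest, so runs and stages are partly mixed. With the stage as a block, 48 of the 77 genes named from this contrast were still called and 29 were not. The suffixes follow the replicate numbers of the labels, so that run 1-3 holds replicate 1 only and run 10-12 replicate 3 only.

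**Figure D2:**
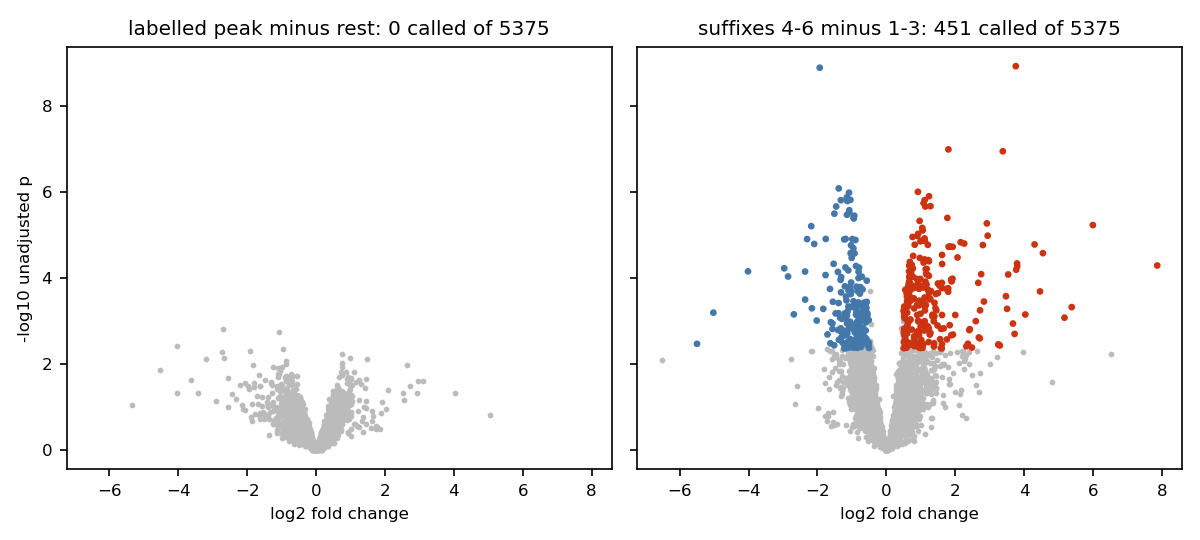
The log2 fold change of each of 5375 genes in capillary cells against the −log10 of its unadjusted p from edgeR, for libraries labelled peak minus rest (left) and for suffixes 4 to 6 minus 1 to 3 (right). On the left 0 genes are called, and on the right 255 red points are called higher and 196 blue points lower.

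Several fatty acid handling genes of the capillary cells were lower in run 4-6 than in 1-3. Of 14 tested, 4 were called lower (Lpl, Tcf15, Rgcc and Btnl9), 1 was called higher (Angptl4), and the median log2 fold change was -0.38 against 0.00 over all genes. Lpl had 1567, 1080.3 and 1629.5 CPM in run 1-3, 763, 684 and 843 in 4-6, 457, 484 and 582 in 7-9 and 1316, 1483 and 1391 in 10-12. Its libraries of 4-6 and 7-9 all lay below those of 1-3 and 10-12 (log2 fold change -0.88 ± 0.16 SE for 4-6 minus 1-3, edgeR adjusted p = 0.00354). Such a separation of 4-6 from 1-3 was found for 25.7% of all genes tested. Tcf15, a transcription factor of capillary cells that take up fatty acids, had 405, 613 and 233 CPM in 1-3 and 97.6, 41.4 and 22.9 in 4-6 (log2 fold change -2.97 ± 0.55, edgeR adjusted p = 0.00377), with 33.5 to 221 in 7-9 and 143 to 314 in 10-12. Its spread within 1-3 was wide, and all of 4-6 lay below it. Angptl4, a secreted inhibitor of lipoprotein lipase, went the other way from 60.2, 59.5 and 192 to 191, 296 and 431 CPM (log2 fold change 1.62 ± 0.39, edgeR adjusted p = 0.0152). Resolved 1, the lowest of 4-6, lay just below resolving 1, the highest of 1-3, so these runs overlapped. The rest of the cells had 45.0 CPM of Angptl4 in 1-3 and 425 in 4-6. Fabp4 had 12578, 13008 and 14450.0 CPM in 1-3 and 8030.0, 9630.4 and 10974 in 4-6, with a log2 fold change of -0.47 that did not reach 0.5.

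The 5 capillary genes of the rule were all below 0 in this contrast and 4 were called, but their detection chose the cells, so this is a description. Gpihbp1 had 1482, 1451 and 1473 CPM in 1-3 and 847, 793 and 871 in 4-6. Timp4, an inhibitor of matrix proteases, had 1195, 1054 and 1239.9 and 634, 369.9 and 477 CPM, and Aqp7, a channel for water and glycerol, 414, 388 and 375 and 106, 169 and 142 CPM. In run 10-12 the same genes ranged over 1629 to 1729, 1380.3 to 1546 and 427 to 514 CPM.

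Several caveolar and transport genes were also lower in 4-6. Of 12 tested, 6 were called lower (Cav1, Cav2, Ptrf, Sdpr, Aqp1 and Slc9a3r2), 0 higher, and the median was -0.53. Cav1, the coat protein of caveolae, had 2484, 2727 and 2344 CPM in 1-3 and 1575, 1959 and 1526 in 4-6 (log2 fold change -0.56 ± 0.13, edgeR adjusted p = 0.0146). Sdpr (Cavin2), which helps to shape caveolae, had 2415, 1731 and 1989.7, 927, 778 and 1058, 965, 919 and 769 and 1906, 2416 and 2119 CPM in the 4 runs (log2 fold change -1.13 ± 0.15 for 4-6 minus 1-3, edgeR adjusted p = 6.66e-04). The 6 libraries of 4-6 and 7-9 all lay below the other 6. Aqp1, a water channel, had 5222 ± 638 CPM in 1-3, 2653 ± 73.5 in 4-6, 2752 ± 803 in 7-9 and 6005 ± 411 in 10-12 (mean ± SD, n = 3), and was called lower in 4-6. Without the cells holding cell cycle genes, Slc9a3r2 alone of these 6 was still called, at a log2 fold change of -0.72.

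**Figure D3:**
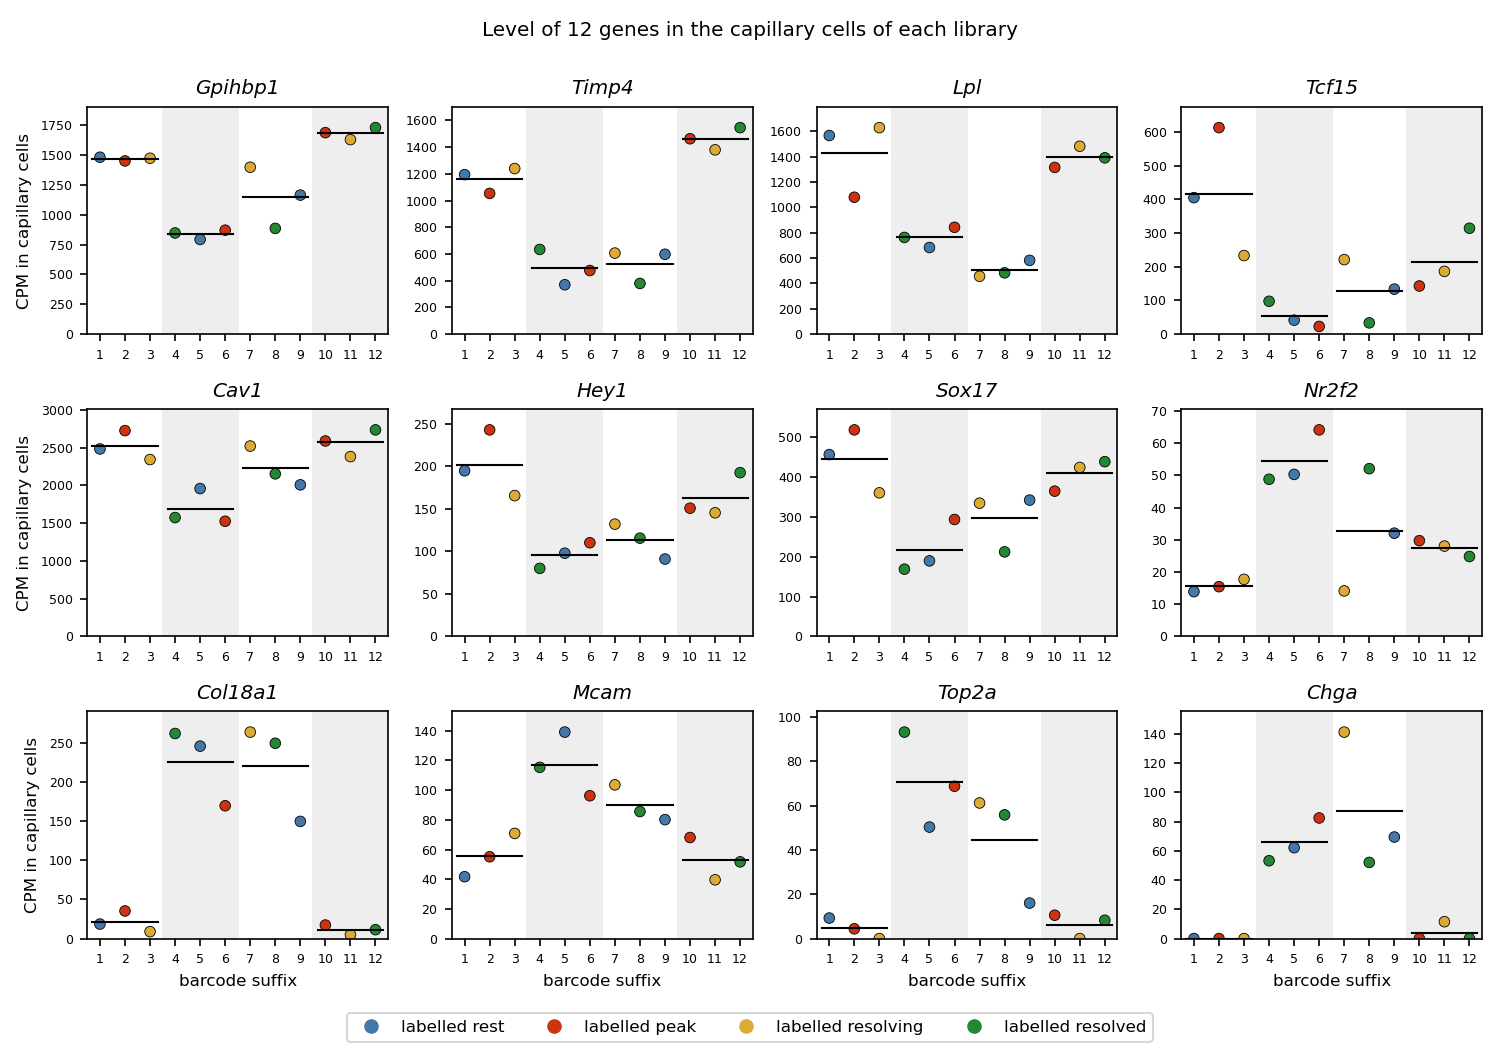
CPM of 12 genes in the summed capillary cells of each library against its barcode suffix, coloured by stage label, with the mean of each run of 3 suffixes as a black line and suffixes 4 to 6 and 10 to 12 shaded. Col18a1 lies between 149.6 and 264 CPM in libraries 4 to 9 and at or below 35.3 in the other 6, and Chga is at 0 in libraries 1 to 3. All y axes start at 0.

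Of 22 endothelial identity genes tested, 4 were called lower in 4-6 (Tie1, Tek, Ptprb and Mmrn2), where 3.65% of all genes were, and 0 higher, with a median of -0.23. Tie1 and Tek are receptors of the angiopoietin pathway, and Tek had 146, 110.2 and 142 CPM in 1-3 and 57.7, 74.0 and 91.6 in 4-6. Cd200, a membrane ligand that restrains myeloid cells, had the smallest p of the genes that were lower. It had 1357, 959 and 1299 CPM in 1-3, 271, 346 and 312 in 4-6, 734, 722 and 779.9 in 7-9 and 1312, 1141 and 1261 in 10-12, with log2 fold changes of -1.93 ± 0.16 for 4-6 minus 1-3 and 1.26 ± 0.16 for 7-9 minus 4-6 (edgeR adjusted p = 3.41e-06 and 0.00301). Run 7-9 thus lay between the others without overlap. The level of Cd200 in all other cells was 138 CPM in 1-3 and 37.4 in 4-6.

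A few genes of the arterial and Notch lists were called lower and a venous one higher. Of all genes, 3.65% were called lower and 4.74% higher, and these few calls were not read as a change of identity. Notch signalling sets the arterial fate of endothelial cells, and Hey1 and Hes1, 2 of its target genes, were called lower in 4-6, with 0 of the 8 Notch genes tested called higher and a median of -0.65. Hey1 had 194, 243 and 165 CPM in 1-3 and 79.9, 97.7 and 110.0 in 4-6 (log2 fold change -1.05 ± 0.22, edgeR adjusted p = 0.00652). Of 13 arterial genes, Sox17 (log2 fold change -1.03 ± 0.22) and Stmn2 (-0.76 ± 0.21) were called lower and 0 higher. Nr2f2, the transcription factor of venous identity, had 13.9, 15.4 and 17.7 CPM in 1-3, 48.8, 50.3 and 64.1 in 4-6, 14.1, 52.1 and 32.1 in 7-9 and 29.7, 28.0 and 24.8 in 10-12, and was called higher in 4-6 (log2 fold change 1.79 ± 0.38, edgeR adjusted p = 0.00707), the only 1 called of 9 venous genes. Venular cells had 73.3 CPM of it on average.

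Some basement membrane genes were higher in 4-6. Of 14 tested, 4 were called higher (Col4a2, Lamb1, Col15a1 and Col18a1), 0 lower, 12 were above 0 and the median was 0.64. Col18a1, whose protein carries endostatin, had 18.5, 35.3 and 8.86 CPM in 1-3, 262, 246 and 169.5 in 4-6, 264, 249 and 149.6 in 7-9 and 17.3, 4.95 and 11.4 in 10-12 (log2 fold change 3.38 ± 0.38 for 4-6 minus 1-3, edgeR adjusted p = 1.50e-04). It was still called without the members holding cell cycle genes, at a log2 fold change of 2.14. The other cells had 19.5 CPM of it in 1-3 and 51.2 in 4-6. Col15a1 had 97.2, 72.8 and 41.3 CPM in 1-3, 142, 219 and 169.5 in 4-6 and 386, 349.8 and 304 in 7-9, where its level was highest (log2 fold change 1.34 ± 0.32 for 4-6 minus 1-3, edgeR adjusted p = 0.0152). Col4a2, a chain of the collagen network of the basement membrane, had 317 ± 36.9 and 508 ± 37.9 CPM. Of 14 tip cell and angiogenesis genes, Aplnr, Trp53i11 and Mcam were called higher and Nrp1, a co-receptor for VEGF, lower. Mcam, an adhesion molecule of endothelial and perivascular cells, had 41.7, 55.1 and 70.8 CPM in 1-3 and 115, 139 and 96.2 in 4-6. Nrp1 had 1178, 1005 and 1092 CPM in 1-3 and 581, 559 and 554 in 4-6 (log2 fold change -0.93 ± 0.14, edgeR adjusted p = 8.64e-04).

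A few inflammatory genes were called in each direction. Of 20 adhesion and inflammation genes, Ccl7 and Il6 were called higher in 4-6, and Icam1 and Nfkbiz lower. Of all genes, 4.74% were called higher and 3.65% lower. Il6, a cytokine, had 285, 234 and 204 CPM in 1-3 and 435, 326 and 628 in 4-6 (log2 fold change 0.94 ± 0.25, edgeR adjusted p = 0.0275). Icam1, on which leukocytes adhere, had 502, 465 and 528 and 159.7, 272 and 275 CPM. Tnf, the cytokine TNF, was called lower in 4-6 with 60.2, 41.9 and 35.4 CPM in 1-3 and 4.44, 2.96 and 0 in 4-6, and had 51.8, 18.6 and 21.4 in 7-9 and 36.4, 19.8 and 51.7 in 10-12 (log2 fold change -4.02 ± 0.76, edgeR adjusted p = 0.00411). The mean over all other cells was below 1 CPM in every run and it was at 0 in the summed venular cells. These values stand near the level of a few UMIs, as 1 UMI is worth 4.44, 2.96 and 4.58 CPM in the libraries of 4-6. Of 25 interferon response genes, 24 were below 0, at a median of -0.59, but Xaf1 alone was called (log2 fold change -1.02 ± 0.21, edgeR adjusted p = 0.00698). Of 10 antigen presentation genes, H2-D1 and Tap2 were called lower, and all 10 were below 0. H2-D1, a class I histocompatibility gene, had 2673 ± 185 CPM in 1-3 and 1779 ± 162 in 4-6.

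Several heat shock genes were lower and some glycolysis genes higher. Of 21 immediate early and dissociation genes, which can respond to the digestion of tissue, 5 were called lower (Dusp1, Hspa1a, Hspa1b, Hspb1 and Dnajb1) and 0 higher. Hspa1a, a chaperone, had 16326, 16384 and 12443 CPM in 1-3 and 6602, 6715 and 9869 in 4-6, and in the rest of the cells 6439.6 and 2176 CPM. The part of this response in the other results was not tested. Of 13 glycolysis genes, Gapdh, Pgam1 and Pkm were called higher, with 539, 862 and 619.9 CPM of Gapdh in 1-3 and 1362, 1814 and 1136 in 4-6. The rest of the cells had 705 and 1789.5 CPM of Gapdh in the same runs.

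Cell cycle genes had the highest median of the lists with at least 4 genes tested. Of 15 tested, 9 were called higher in 4-6 (Top2a, Cdk1, Ccna2, Birc5, Tyms, Tk1, Ube2c, Hmgb2 and Stmn1), all 15 were above 0, and the median log2 fold change was 2.62. The filter on low counts keeps a gene that is high in a single run. Genes near 0 in 1-3, such as Top2a, could pass it through 4-6, so the direction count, the median and the p of such genes are a description. Cdk1, the kinase that drives entry into mitosis, had 11.6, 2.21 and 11.8 CPM in 1-3, 57.7, 62.2 and 73.3 in 4-6, 47.1, 33.5 and 21.4 in 7-9 and 1.92, 1.65 and 2.07 in 10-12 (log2 fold change 2.94 ± 0.47, edgeR adjusted p = 0.00162). Top2a, which untangles replicated DNA, had 9.26, 4.41 and 0 and 93.2, 50.3 and 68.7 CPM in the first 2 runs (log2 fold change 3.77 ± 0.70, edgeR adjusted p = 0.0039). Stmn1, a regulator of microtubules, had 94.9, 83.8 and 76.8, 337, 246 and 307, 240.0, 283 and 171 and 68.1, 64.3 and 74.4 CPM in the 4 runs. Members with at least 3 of 18 cell cycle genes were 25%, 36.2% and 22.2% of the capillary cells in the libraries of 4-6, 13.6%, 25.9% and 10.2% in 7-9, and 7.98% to 12.6% in the 6 libraries of 1-3 and 10-12. After thinning to 1000 UMIs per cell these shares were 11.4%, 10.1% and 7.41% in 4-6, 5.08%, 6.90% and 4.08% in 7-9 and at most 1.83% in 1-3 and 10-12. Cdk1 in the other cells was 14.3 CPM in 1-3 and 55.2 in 4-6.

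The promoters of these genes are shown because the genes moved together. Of the 9 genes, 7 had a promoter in the RefSeq table (GRCm38.p6, 250 bases before to 50 after the start). Both TTTGAA, the core of the cell cycle homology region, and CCAAT were searched on both strands (TTCAAA and ATTGG on the other), and neither motif contains the other. Cdk1, Hmgb2, Top2a and Ube2c held both (4 of 7), and 6.95% of all 32851 promoters held both, 17.9% the first and 37.4% the second. A match describes the letters only. The 120 bases just before the start are given 5′ to 3′ for 3 of the 4, in lower case with these motifs in capitals.
Top2a, chr11:99024190-99024309 (- strand): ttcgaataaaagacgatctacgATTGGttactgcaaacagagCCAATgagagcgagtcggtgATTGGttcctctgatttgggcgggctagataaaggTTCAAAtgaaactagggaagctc
Cdk1, chr10:69352913-69353032 (- strand): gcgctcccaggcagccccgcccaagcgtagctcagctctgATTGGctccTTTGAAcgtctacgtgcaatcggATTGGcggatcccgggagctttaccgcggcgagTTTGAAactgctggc
Ube2c, chr2:164769809-164769928 (+ strand): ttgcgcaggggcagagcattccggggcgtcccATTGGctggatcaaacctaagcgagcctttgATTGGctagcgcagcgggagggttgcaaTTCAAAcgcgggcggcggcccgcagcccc

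The largest log2 fold changes between 4-6 and 1-3, among called genes whose libraries did not overlap, were those of Chga, Slpi, Thbs4, Ccl7, Ccna2, Akr1b8, Birc5, Tacc3, Top2a and Mest among the higher genes, and Col2a1, Tnf, Tcf15, Bbs9, Akr1c14, Ripply3, Fam57b, Ssu2, Ptprr and Fmnl1 among the lower. Chga, chromogranin A of secretory granules, had 53.2, 62.2 and 82.5 CPM in 4-6, 141, 52.1 and 69.4 in 7-9 and 0, 11.5 and 0 in 10-12, and 0 UMIs in all libraries of 1-3. Against a floor of 3 UMIs over run 1-3 it was at least 26.6-fold higher in 4-6, and edgeR's adjusted p was 0.00354. With 0 UMIs in 1-3, it could pass the filter on low counts only through other runs, so this p is a description. The same holds for other genes of this ranking that were near 0 in one of the runs. The other cells had 1.12 CPM of it in 4-6 and the venular cells 6.83 CPM on average over 12 libraries. Mest, an imprinted gene expressed in growing tissue, had the smallest adjusted p together with Cd200. It had 46.3, 44.1 and 23.6 CPM in 1-3, 421, 701 and 426 in 4-6, 278, 320.0 and 176 in 7-9 and 47.0, 28.0 and 27.9 in 10-12 (log2 fold change 3.76 ± 0.30, edgeR adjusted p = 3.41e-06). Ssu2 had 43.99, 44.1 and 50.2 CPM in 1-3, 8.87, 8.88 and 9.16 in 4-6 and 47.1, 59.5 and 37.4 in 7-9, and was called in both contrasts (log2 fold changes -2.30 ± 0.37 and 2.41 ± 0.40, edgeR adjusted p = 0.00162 and 0.0352). Ptprr, a tyrosine phosphatase, had 132, 90.4 and 133 and 13.3, 32.6 and 27.5 CPM in the first 2 runs.

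Some of these genes were far more abundant in other cells. Ccl7, a monocyte-attracting chemokine, had 11.6, 19.8 and 5.90 CPM in the members of 1-3 and 191, 598 and 91.6 in 4-6, while all other cells had 541 and 2522. Slpi, an antiprotease, had 129, 323 and 36.7 CPM in 4-6 beside 874 in the other cells, and Col2a1, a cartilage collagen, had 69.5, 52.9 and 1458 CPM in 1-3 beside 3951. The single high value of Col2a1 was that of resolving 1. The 9 fibroblast markers summed to 615 to 2260.0 CPM in the members of 1-3, 2795 to 6646 in 4-6, 1878 to 12860 in 7-9 and 4106 to 4285 in 10-12, and 7 of 7 tested were above 0 in 4-6 minus 1-3 with 1 called (Fbln1). Members with at least 3 of the 7 other-cell markers were 45.5%, 37.7% and 37.0% in 4-6 and 10.7% to 17.4% in 1-3, and 206 genes of 3762 tested were called without them. Without 4 sub-clusters led by perivascular, fibroblast, muscle or erythroid genes (192 members), 590 of 4437 genes were called. Of 77 genes that the lists or the ranking above take from the 451 calls, 63 were then called again, 4 were not and 10 were no longer tested. The part of these markers in the other results was not tested.

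**Figure D4:**
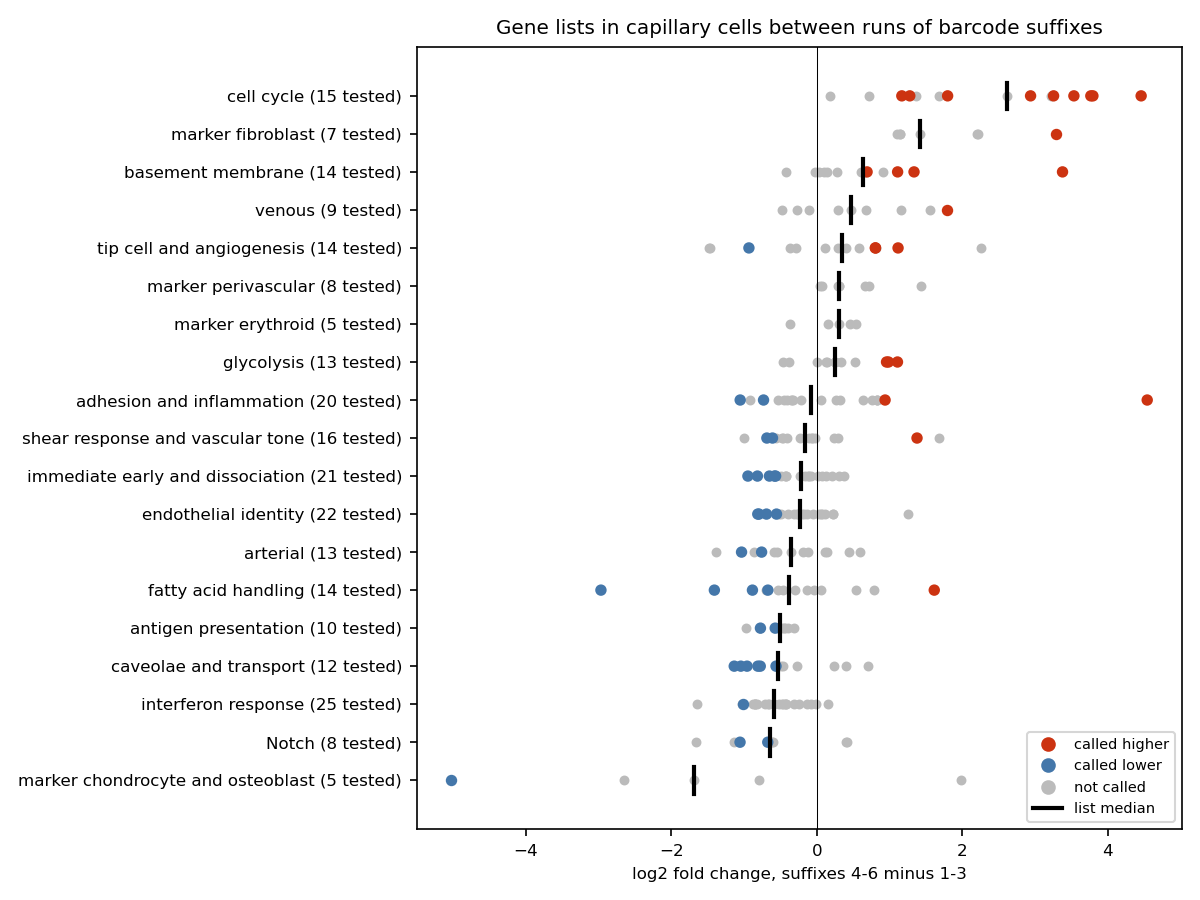
The log2 fold change of every tested gene of each list in capillary cells, suffixes 4 to 6 minus 1 to 3, with called genes in red (higher) or blue (lower), other genes in grey and the median of each list as a black bar. Lists with 4 or fewer genes tested are left out, as are the lists of the rule's own genes. Cell cycle genes have the highest median (2.62), and the caveolae and Notch medians lie at -0.53 and -0.65.

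Between runs 7-9 and 4-6, the 7 calls were Socs2, Pltp, Cd200, Col8a1 and Ssu2, higher in 7-9, and Tnfaip6 and Ran, lower. Pltp, which transfers phospholipids between lipoproteins, had 259, 298 and 331 CPM in 1-3, 106, 145 and 174 in 4-6 and 325, 272 and 294 in 7-9 (log2 fold change 1.05 ± 0.19 for 7-9 minus 4-6, edgeR adjusted p = 0.0352). Col8a1, a short-chain collagen of vessels, had 245, 231 and 80.1 CPM in 7-9 and 29.6 to 57.7 in 4-6. This count changed with single libraries, as 1 gene was called without rest 1, 3 without peak 1, peak 3, resolving 1 or rest 3, 4 without resolved 1, resolved 3 or rest 2, and 11 without resolving 3. DESeq2 called 27.

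The capillary cells were set against the 251 venular cells of the same libraries. This contrast follows the rule that split the cells, so it is a description with no test. Venular cells numbered 11 to 43 per library, and their smallest sum was 53474 UMIs, in rest 3. Low venular levels therefore rest on few UMIs, also in the interaction fits. At least 3 of the 7 other-cell markers were found in 33.1% of venular cells and 20.4% of members, and their part in the ratios was not tested. In all 12 libraries, 129 of 1769 genes with a mean of at least 100 CPM in the higher class were higher in capillary cells and 120 were lower. Lpl was highest in ratio, with 1023 ± 439 against 26.6 ± 24.1 CPM and a median log2 ratio of 5.31 (CPM + 10). Car8, Rbp7, Thrsp, Tcf15, Rgcc, Alpl, Clic5, Cdkn1c, Ablim3, Rasgrp2 and Sept4 followed, as did the interferon-induced genes Rsad2, Ifit1 and AW112010. Rbp7, a retinol binding protein, had 212 ± 92.0 against 15.2 ± 21.7 CPM and Rsad2, an antiviral enzyme, 184 ± 51.6 against 20.5 ± 21.0 CPM. The venular cells had more of Ackr1, the chemokine receptor of venules, at 5.40 ± 12.01 against 233 ± 141 CPM, in capillary against venular cells. Plvap, the diaphragm protein of fenestrae and caveolae, had 564 ± 348 against 2049 ± 554 CPM, and Slco2a1, a prostaglandin transporter, 27.1 ± 19.5 against 187 ± 67.5 CPM. Whether run or stage changes differed between the 2 classes was fitted as an interaction, which called 5 of 5338 genes (0.0937%) for 4-6 minus 1-3, 3 of them lower (0.0562%) in capillary cells, 2 (0.0375%) at peak and 2 (0.0375%) at resolved, and 0 in the other 3 contrasts, where 221, 226 and 281 genes had an unadjusted p under 0.05 and DESeq2 called 0, 1 and 0. Among the calls, Gpihbp1 for 4-6 minus 1-3 and Selp at peak are genes of the rule, so for them the difference is a description and no test.

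**Figure D5:**
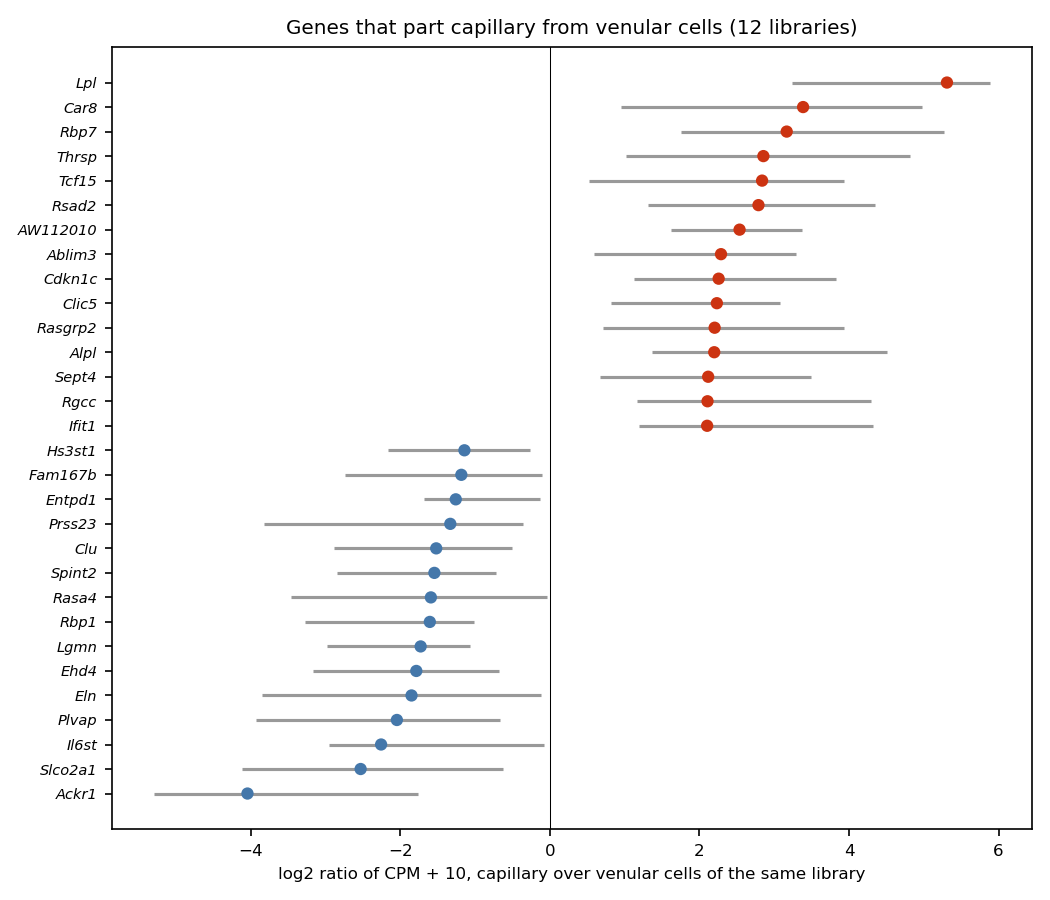
Median over 12 libraries of the log2 ratio of CPM + 10 in capillary over venular cells of the same library for the 15 highest (red) and 15 lowest (blue) genes outside the rule, with grey lines from the lowest to the highest library. Lpl has the highest median, 5.31, and Ackr1 the lowest, -4.04.

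Compared with all other cells of the same libraries, also a description, 711 of 1940 genes were higher in the members in all 12 libraries and 515 lower. Besides Fabp4, the highest ratios were those of C1qtnf9, Flt1, Tspan13, Cd300lg, Sdpr, Esam, Iigp1, Adgrl4, Cd93, Sox17, AW112010, Adgrf5, Scarb1 and Rbp7. Flt1, a receptor for VEGF, had 880.2 ± 232 against 13.8 ± 3.16 CPM, and Scarb1, the receptor for high density lipoprotein, 512 ± 134 against 18.8 ± 8.47 CPM. Prg4 (lubricin), the chemokine Cxcl14 and the collagens Col1a1 and Col1a2 were among the lowest.

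The members were not uniform. Clustering of the 1323 members gave 11 sub-clusters, described here by their leading genes with no test. The largest, of 252 cells, was led by Stmn2, Tm4sf1, Hey1, Alpl, Rbp7 and Gja4, several of them arterial genes, which the rule did not gate out. The next 2, of 205 and 200 cells, were led by Aqp1, Timp4 and Lpl, and by Gpihbp1, Timp4 and C1qtnf9. Sub-clusters of 159 and 117 cells were led by immediate early and heat shock genes (Jun, Hspa1a, Egr1) and by Hspa8, Nfkbia and Iigp1. A sub-cluster of 99 cells was led by Vim, Plvap, Col18a1 and Col15a1 with a median of 2 capillary genes, and another of 99 cells by Plvap, Itih5 and Ehd4. The remaining 4, of 89, 60, 37 and 6 cells, were led by genes of perivascular cells (Rgs5), fibroblasts (Dcn), muscle (Acta1) and red blood cells (Hba-a1), and their cells had median UMIs of 5726, 8116, 3520 and 6727.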

How the data were processed

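Single-cell RNA-seq of CD45-negative joint cells was used from all 12 libraries. The authors deposited a matrix of UMI counts per gene and cell for each library and per the labels the reads were processed with Cell Ranger on the mouse build mm10. The matrices hold 27998 gene identifiers. The deposited values are UMI counts, and whether depth was equalized between libraries is not given in the sources used here.

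Cells with more than 500 and fewer than 5000 detected genes were kept. Groups came from the labels, and the suffix runs from the deposited barcodes. UMI counts of the members were summed per library, with 10 or more cells needed for a sum. Sums were tested with edgeR 4.0.16 (R 4.3.3) with TMM scaling, its filter on low counts and the quasi-likelihood test, fitted over all 12 libraries, with Benjamini-Hochberg adjustment over all genes tested. Differences between capillary and venular changes were interaction terms in the same kind of fit. Shares were compared with exact two-sided permutation tests. Intervals on shares are Wilson intervals at 95%, and they cover counting error only. The libraries are labelled as separate samples, each a pool of animals, and p-values measure the spread between such pools. Alternatives were DESeq2 1.42.0, other scaling, filters and cell selections, thinning to 1000 UMIs per cell (no member had fewer), and leaving out each library. Sub-clusters came from scanpy 1.11.5 (Leiden, resolution 0.8). No doublet caller was run, and cells with markers of another type were left out as alternatives instead. The fits were also run on simulated sums with known changes, whose outcome is not given here. Apart from the changes set, these sums had a common mean per gene. They do not show how the stage test behaves where libraries differ by run.

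One UMI was worth 0.959 to 5.34 CPM in the summed members, so a gene at 0 in a library may reach 2.88 to 16.0 CPM (3 UMIs).

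Named genes were up to 10 higher and 10 lower per contrast with the largest log2 fold change among called genes whose libraries did not overlap, the called genes of the fixed lists in 4-6 minus 1-3, and all interaction calls. Other list members are named with their values as context, chosen after those values were seen. The members, the lists and the suffix runs were chosen with earlier results of these data known. Gene lists were compared by counts and medians alone.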

Additional observations from a re-analysis of the deposited data

Results flagged for a closer look

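In 9 genes edgeR's interaction term called a difference between the capillary and venular changes between stages or suffix runs. Selp and Gpihbp1 are genes of the rule that chose the cells, so their differences are descriptions and no p is given. Negative values mean that the capillary change was the lower one.

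At peak minus rest, the difference was -7.03 (log2, SE 1.20) for Selp, the adhesion molecule P-selectin. Capillary cells had 13.9, 56.2 and 48.1 CPM at rest and 0 in all 3 libraries at peak, and venular cells had 683 and 698 CPM on average. Selp is one of the genes that kept cells out of the capillary class. The difference was -9.53 (edgeR adjusted p = 0.0014) for Cxcl5, a chemokine that attracts neutrophils, which had 246 CPM in the capillary cells of rest 2 and at most 2.32 in the other 2 libraries at rest, and 108 CPM on average in venular cells at peak.

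At resolved minus rest, the difference was -8.65 (edgeR adjusted p = 0.00789) for S100a9, a calcium-binding protein of neutrophils, which had 1131 CPM in the capillary cells of rest 2 alone and at most 7.44 in the other libraries of the 2 stages. It was -7.56 (edgeR adjusted p = 0.00135) for Hp, haptoglobin, with 142 CPM in the capillary cells of rest 2, 0 in the other 2 libraries at rest and 711 CPM on average in venular cells at resolved. DESeq2 called none of these 4 genes. The 12 immune markers, S100a9 among them, summed to 2459 CPM in the capillary cells of rest 2, to 13.9 and 21.4 in the other 2 libraries at rest and to between 18.6 and 30.0 at resolved, and their part in these calls was not tested. Cxcl5 was not called without rest 2 or peak 2, and Hp was not called without rest 2 or resolved 2. S100a9 was not called without resolved 2 or resolved 3, and without rest 2 or peak 2 it was left out by the filter on low counts. Selp was not called without any 1 of rest 2, rest 3, peak 1, peak 2, peak 3, resolving 1 or resolved 3.

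For suffixes 4 to 6 minus 1 to 3, the difference was 2.06 for Pcp4l1, 1.35 for Junb, -1.36 for Gng11 and -4.51 for Serpinb1a, each at an edgeR adjusted p of 0.0478, and -3.08 for Gpihbp1. Gpihbp1, a gene of the rule, went from 1468 to 837 CPM in capillary cells and from 53.0 to 267 CPM in venular cells, and Junb, an immediate early gene, from 4039 to 3697 and from 4241 to 1406 CPM. Each of the 5 was no longer called without rest 1, peak 1, resolving 1 or resolved 1. Gpihbp1, Junb and Pcp4l1 were also lost without peak 2, Pcp4l1 and Serpinb1a without rest 2, Gpihbp1 without rest 3, and Gng11 without each library except resolving 2.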

How the results depend on the processing

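The 0 calls between stages held under each alternative run except 2. Without the filter on low counts 88, 84 and 57 genes were called at peak, resolving and resolved, and with the suffix run as a block 1 was called at resolved. For suffixes 4-6 minus 1-3 the count of 451 became 129 with members that had at least 2 more capillary than venular genes, 206 without cells holding other-cell markers, 99 after thinning to 1000 UMIs, 217 with the stage as a block, 36 without cycling cells and 188 with 44 cells drawn per library. For 7-9 minus 4-6 the count of 7 became 132 without the filter, 27 with DESeq2, 2 with the stricter margin, 12 with mitochondrial UMIs at most 10%, 1 without other-cell markers, 3 after thinning, 3 with the stage block and 19 without the sub-clusters led by other markers. For 10-12 minus 1-3 the count of 0 became 167 without the filter, 13 with DESeq2, 8 without other-cell markers, 3 after thinning, 4 with the stage block and 9 without those sub-clusters. The F test's 674 became 1158 without the filter, 272 with the stricter margin, 399 without other-cell markers, 135 after thinning, 368 with the stage block, 261 without cycling cells and 335 with 44 cells. Several of these alternatives test fewer genes or fewer cells. The alternatives without cycling cells, with 44 cells and without sub-clusters were chosen after the data were seen. Cycling cells here are the 170 members (12.8%) with at least 3 of 18 cell cycle genes at full depth. After thinning to 1000 UMIs, 30 members (2.27%) had as many, so the name stands for detected genes and also depends on depth.

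Same-numbered libraries deviated from their stage means with correlations of -0.23 to 0.24. All 3 correlations with rest were over 0.1 for replicate 2, but not for replicates 1 and 3, so a shared number was not read as a pair. Run 1-3 is all replicate 1 and run 10-12 all replicate 3, so a replicate block also takes up part of the difference between runs. With a replicate block, 99 genes were called for 4-6 minus 1-3, 1 for 7-9 minus 4-6, 170 by the F test and 0 in the other comparisons of capillary cells. Of the 77 named calls in 4-6 minus 1-3, 19 were called under it, among them Sdpr, Col18a1, Mest, Stmn1 and Top2a, and 58 were not, among them Lpl, Tcf15, Cav1, Aqp1, Hey1, Nrp1, Cdk1 and Tnf.

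Of the differences between capillary and venular changes, the counts of 2, 0 and 2 at peak, resolving and resolved became 26, 51 and 18 without the filter, 17, 5 and 14 with the stricter margin, and 0 at peak and 0 at resolved with DESeq2. Without other-cell markers, 1 was called at peak and 1 at resolving, and after thinning 0 at resolved. The counts of 5, 0 and 0 between runs became 57, 32 and 24 without the filter and 14, 7 and 1 without other-cell markers, with 17 and 1 by DESeq2 in the first 2, and 5 for 7-9 minus 4-6 after thinning. Genes higher or lower than in venular cells in every library became 339 and 392 with the stricter margin and 395 and 512 after thinning, over 5 and 3 libraries with enough cells.

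Leaving out 1 library at a time gave 245 to 511 calls for 4-6 minus 1-3, 1 to 11 for 7-9 minus 4-6, 0 to 1 for 10-12 minus 1-3, 468 to 689 by the F test, and 0 at every stage. The differences between classes ranged from 0 to 4 at peak, 0 to 4 at resolving and 0 to 5 at resolved, and from 0 to 6, 0 to 2 and 0 to 5 between runs. The share differences ranged from 6.43 to 22.9 percentage points at peak, 1.74 to 16.6 at resolving and -11.3 to 9.94 at resolved, and from -25.4 to -20.5, -1.25 to 6.41 and 9.82 to 14.7 between runs. Resolved minus rest reversed to -5.41 without rest 2, to -11.3 without resolved 3 and to -7.10 after thinning. For 7-9 minus 4-6 it reversed to -0.206 without rest 2, to -1.25 without rest 3 and to -0.340 as a share of all cells. The log2 fold change of Hmgb2 reversed to -0.22 without cycling cells and that of Hspa1b to 0.082 after thinning. Hmgb2 is one of the 18 cell cycle genes whose detection chose the cells left out, so its reversal is a description and no test. The cause of the other reversals was not tested. Of the 77 named calls in 4-6 minus 1-3, 8 were called without cycling cells, where 62 were still tested. The smallest sums of members (187204 UMIs) limit what could be detected in genes of low level.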
